A study of Mus musculus with 43 samples.

Results

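The genes described here are 36 transcripts of the ribbon synapse and the vesicle release machinery. The choice was made by symbol, with earlier results of these data known. All 36 were found among the 54532 genes of the deposited read-count table. They were measured in whole retinas of C57BL/6J mice that received laser burns to induce choroidal neovascularization (CNV, the growth of choroidal vessels towards the retina) at 9 weeks of age. Control mice were lasered without supplementation, and SCFA mice drank water with the sodium salts of the short-chain fatty acids acetate (67.5 mM), propionate (40 mM) and butyrate (25 mM) from before the laser until tissue collection. The gram amounts that the labels give beside these concentrations put butyrate above propionate, so the doses of these 2 salts are uncertain. The eyes of males and females were taken on day 3, 7 or 14 after the laser (dpl, days post laser), which gives 12 groups of 3 to 5 libraries and 43 libraries in all. Each library was a pool of 2 retinas from different animals of a group, and the p-values below measure the spread between such pools. No retina without laser was analysed here.

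Photoreceptors and bipolar cells release glutamate without pause, at active zones where a protein plate, the synaptic ribbon, holds a store of vesicles beside L-type calcium channels. Amacrine and ganglion cells, whose synapses have no ribbon, use the same basic fusion machinery in other variants. The terminals with ribbons contain the syntaxin Stx3 and the complexins Cplx3 and Cplx4 where conventional synapses contain Stx1a, Cplx1 and Cplx2. Bulk RNA holds all of these terminals' parent cells together, so fewer cells of a type and less RNA per cell cannot be told apart.

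Library totals ran from 14826957 to 21507527 counts (median 17683615). The columns of the table come as a run of 31 libraries followed by a run of 12, here called the first and the second column run, and the labels do not say what separates them. Controls and SCFA libraries of the same sex and day stand in both runs only in males at 3 dpl and in females at 14 dpl. Mitochondrial transcripts took 5.19 to 16.6% of the counts in the first run and 2.65 to 4.87% in the second. The library labelled female SCFA 3 dpl replicate 2 held 126690 CPM (counts relative to the library total) of 6 lens genes, against at most 535 CPM in the other 42 libraries. The library labelled female control 7 dpl replicate 2 held 38.8 CPM of 4 Y-linked transcripts, where the other 21 female libraries held 0 and the 21 male libraries between 137 and 294 CPM. All libraries held the defining transcripts of retina, with summed levels of 10 rod markers from 51178 to 105804 CPM, of 9 cone markers from 1381 to 2593 CPM and of 10 bipolar cell markers from 733 to 1320 CPM (here and below scaled by TMM, a normalization that discounts genes with extreme differences). Oligodendrocyte markers, whose cells the mouse retina normally lacks, summed to between 4.46 and 374 CPM, with the highest values in male control and male SCFA 7 dpl.

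The syntaxins and complexins come as paralogs that divide between ribbon and conventional synapses, and the bases before their start sites are shown because with SCFA Stx3 and Stx1a were called in opposite directions and Cplx1, but not Cplx3, was called, as given below. The stretches are the 250 bases before the RefSeq transcription start (GRCm38.p6), written on the strand of the gene, with the letters GGGCGG or their reverse complement CCGCCC, the core of a GC box, in capitals.

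Stx3 (chr19:11819404-11819653, minus strand): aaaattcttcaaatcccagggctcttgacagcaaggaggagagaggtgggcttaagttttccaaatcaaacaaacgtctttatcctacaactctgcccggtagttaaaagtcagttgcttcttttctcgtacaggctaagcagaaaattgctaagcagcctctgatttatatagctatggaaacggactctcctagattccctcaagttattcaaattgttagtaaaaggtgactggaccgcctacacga

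Stx1a (chr5:135023232-135023481, plus strand): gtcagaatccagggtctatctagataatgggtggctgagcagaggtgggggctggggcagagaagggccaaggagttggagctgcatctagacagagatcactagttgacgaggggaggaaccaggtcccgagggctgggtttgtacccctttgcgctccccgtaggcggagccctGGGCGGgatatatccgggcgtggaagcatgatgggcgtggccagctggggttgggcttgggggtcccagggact

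Cplx3 (chr9:57606282-57606531, minus strand): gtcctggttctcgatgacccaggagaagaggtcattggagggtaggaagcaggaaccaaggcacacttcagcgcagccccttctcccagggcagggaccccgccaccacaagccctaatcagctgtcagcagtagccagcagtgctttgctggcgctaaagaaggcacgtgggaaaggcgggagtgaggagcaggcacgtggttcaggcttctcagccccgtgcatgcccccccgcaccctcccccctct

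Cplx1 (chr5:108550028-108550277, minus strand): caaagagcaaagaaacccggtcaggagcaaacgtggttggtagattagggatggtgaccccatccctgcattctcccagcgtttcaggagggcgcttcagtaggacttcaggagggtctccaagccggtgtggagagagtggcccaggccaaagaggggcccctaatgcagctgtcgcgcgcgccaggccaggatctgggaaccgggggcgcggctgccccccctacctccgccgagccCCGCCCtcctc

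The stretch before Stx1a holds GGGCGG 74 bases from the start and the stretch before Cplx1 its reverse complement 11 bases from the start, while the stretches before the ribbon paralogs Stx3 and Cplx3 hold neither. Before Cplx2, a conventional complexin, the letters are absent too, and for the ribbon complexin Cplx4 no RefSeq start was at hand. G and C make up 42% of the bases before Stx3, 62% before Stx1a, 62.8% before Cplx3 and 64.8% before Cplx1. The letters stand on either strand of 32.7% of all 32851 such stretches of the mouse table. RefSeq starts were at hand for 30 of the 36 genes, and 19 of these have at least 1 of their 39 stretches with the letters (20 stretches). TAATCC, the core that the photoreceptor factor CRX binds, stands on either strand before Ctbp2, Sv2b and Syp, and in 6.25% of all stretches. A match of letters is a description and not a binding site.

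Per kilobase of exon, the most abundant transcript was Slc17a7, which encodes the glutamate transporter VGLUT1 of photoreceptor and bipolar vesicles, with 381 ± 55.4 CPM per kb (SD, n = 43). Cplx4 followed with 318 ± 36.9 CPM per kb. Vamp2, Syp, Snap25 and Rab3a lay between 150 and 208 CPM per kb, and Stx3 at 126 ± 16.1 CPM per kb. The complexin with the second highest level was Cplx3 at 107 ± 21.2 CPM per kb, above Cplx1 (40.1 ± 11.6) and Cplx2 (26.8 ± 6.57). At the low end were Erc1, an active zone scaffold, with 0.534 ± 0.136 CPM per kb, the calcium sensor Syt2 (2.72 ± 0.839) and Stx1a (2.78 ± 0.551), the syntaxin of conventional synapses. The lowest count of any of the 36 genes in any library was 64, for Stx1a, so that no value rests on a handful of reads.

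Of the 36 genes, those with the most even levels over the libraries were Vamp2, Cplx4, Syp and Erc2, with coefficients of variation of 10, 11.6, 11.7 and 11.8%. Those that varied most were Syt2 (30.8%), Syngr1 (29.6%), Cplx1 (29%), Sv2a (27.4%) and Vamp1 (27%). In the same measure Bsn stood at 22.9%, Ctbp2 at 13.5%, Slc17a7 at 14.5%, Stx3 at 12.8%, Syt1 at 19.5%, Cplx3 at 19.8% and Cacna1f at 25.4%. Group means of Bsn, the scaffold bassoon that anchors the ribbon, lay between 60.5 ± 5.51 CPM (SD, n = 3, female control 3 dpl) and 89.2 ± 26.9 CPM (n = 3, female control 14 dpl). Those of Ctbp2, which encodes the ribbon protein RIBEYE and the repressor CtBP2 (gene counts do not separate them), lay between 182 ± 13.9 CPM (n = 3, male SCFA 14 dpl) and 238 ± 53 CPM (n = 3, female control 14 dpl). Cacna1f, the pore subunit of the photoreceptor channel Cav1.4, ranged from 277 ± 88.9 CPM (n = 5, female SCFA 3 dpl) to 481 ± 40 CPM (n = 3, male control 7 dpl). Slc17a7 went from 1863 ± 559 CPM (n = 5, male SCFA 7 dpl) to 2376 ± 189 CPM (n = 3, male SCFA 3 dpl). Stx3 went from 622 ± 51.9 CPM (n = 3, male control 7 dpl) to 865 ± 182 CPM (n = 4, female SCFA 7 dpl), and Syt1 from 690 ± 118 CPM (male control 7 dpl) to 1030 ± 63 CPM (n = 4, female SCFA 14 dpl). Cplx3 went from 271 ± 44.5 CPM (n = 4, male control 3 dpl) to 397 ± 55.4 CPM (n = 5, female SCFA 3 dpl), and Cplx4 from 545 ± 12.1 CPM (n = 4, male control 3 dpl) to 690 ± 20.6 CPM (n = 4, female SCFA 14 dpl). The highest group means of Bsn and Ctbp2 belonged to a group with 2 of its 3 libraries in the second column run, and the lowest mean of Cacna1f to the group that holds the library with lens transcripts.

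More of these genes were called between the column runs than in any comparison of treatments. Of the 36 genes, 28 were higher in the second run and 0 were lower (edgeR's quasi-likelihood test with the 12 groups and the run in 1 fit, Benjamini-Hochberg adjusted p under 0.1, the call used throughout). Over all 18197 genes tested, 25.7% were called higher and 26.4% lower between the runs. The median log2 difference was 0.25 over the 36 genes and -0.01 over all genes. Members of every role took part, with 8 of 9 scaffold and priming genes, 2 of 4 channel genes, 5 of 7 SNARE and NSF genes, 5 of 7 synaptotagmins and complexins, 7 of 8 vesicle genes and Dnm1, which encodes the dynamin that pinches off recycled vesicles.

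Syngr1, a synaptogyrin of the vesicle membrane, had a median of 182 CPM in the first run and 298 CPM in the second, and a log2 difference of 0.81 ± 0.105 (SE, edgeR's adjusted p = 1.84e-07). Nsf, the ATPase that takes spent SNARE complexes apart, had medians of 314 and 482 CPM, and 10 of the 12 second-run libraries were above every first-run library (0.59 ± 0.0863, edgeR's adjusted p = 1.31e-06). For Dnm1 the medians were 418 and 523 CPM and 8 of 12 second-run libraries were above all others (0.42 ± 0.0563, edgeR's adjusted p = 3.06e-07). The 8 genes not called were Unc13b, Cacna1f, Cabp4, Stx1a, Stx3, Cplx3, Cplx4 and Syp. Among them, Stx3 differed by -0.06 ± 0.0625, Cplx4 by -0.02 ± 0.0651 and Syp by -0.01 ± 0.0663 between the runs on the log2 scale. Marker lists moved between the runs as well, beside 25.7% of all genes called higher and 26.4% lower. Endothelial markers (4 of 5 higher, median sums of 109 CPM in the first run and 165 CPM in the second), amacrine markers (5 of 8 higher, 464 and 612 CPM) and bipolar markers (5 of 10 higher, 1 lower, 899 and 1012 CPM) were higher in the second run. Markers of the retinal pigment epithelium (6 of 8 lower, 337 and 153 CPM), red blood cells (5 of 5 lower, 81.5 and 38.6 CPM) and oligodendrocytes (4 of 6 lower, 12.5 and 6.62 CPM) were lower. Their part in the values of the release genes was not tested.

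**Figure D1:**
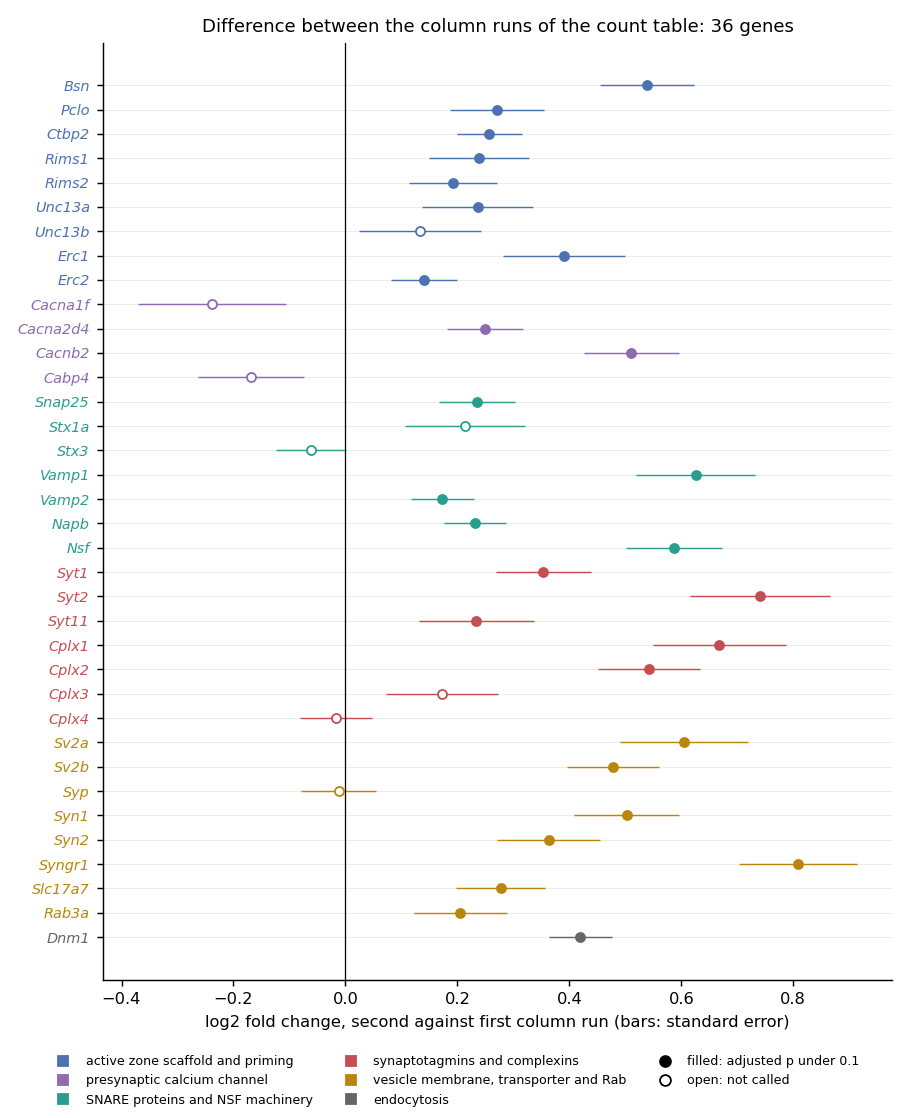
Log2 difference between the second and the first column run for each of the 36 genes, with its standard error, from the fit of 12 groups and column run (43 libraries), grouped by role. Filled points are genes with an adjusted p under 0.1; 28 genes lie above 0 and are called, and Stx3, Cplx4 and Syp lie at 0 within their errors.

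Averaged as log2(CPM + 1) over the 36 genes, the first run had levels from 7.21 to 7.63 (median 7.45, n = 31) and the second from 7.50 to 7.89 (median 7.74, n = 12). Within the first run, male SCFA 7 dpl held 7.35 ± 0.118 (SD, n = 3) and male control 7 dpl 7.45 ± 0.0259 (n = 3). At 14 dpl the male values were 7.48 ± 0.118 with SCFA and 7.55 ± 0.0339 without (n = 3 each), so that the groups overlapped at both days. In males at 3 dpl the second-run controls stood at 7.81 ± 0.023 (n = 2) and the second-run SCFA libraries at 7.61 ± 0.15 (n = 2), while the first run held 7.36 ± 0.0228 (n = 2) and a single SCFA value of 7.46. The controls were above the SCFA libraries in the second run and below in the first.

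**Figure D2:**
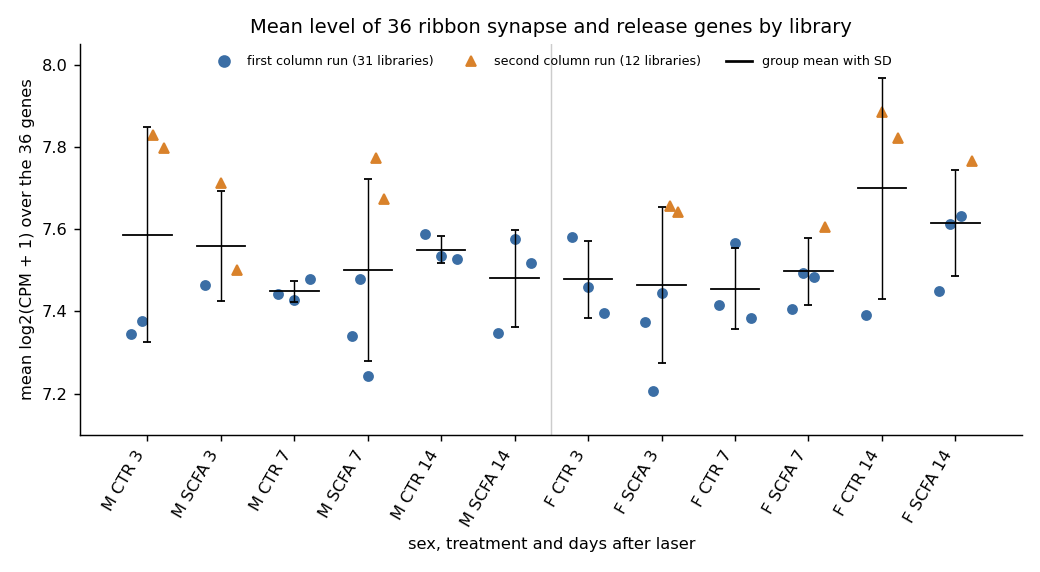
Mean log2(CPM + 1) over the 36 genes in each of the 43 libraries, by sex, treatment and dpl, with group mean and SD. Triangles, the second column run, sit above the circles of their own group in every group that has both; the 2 highest groups of triangles are the controls of males at 3 dpl (7.80 to 7.83) and of females at 14 dpl (7.82 to 7.89).

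The response to SCFA over both sexes and all days was taken as the mean of the 6 SCFA against control differences (2 sexes, 3 days), with the column run in the fit. Of the 36 genes, 6 were higher and 12 lower, or 50%, against 34.7% of all genes tested (17.7% higher, 17% lower). The median log2 difference was -0.07 for the 36 genes and 0.00 (0.0031) for all. No change of any of the 36 genes that was called reached a factor of 2, here or in the other comparisons. The share of all genes that did was 0.703% on the mean of the strata, 4.8% between the column runs, 0.011% in males at 3 dpl, 2.09% in females at 3 dpl, 3.37% in males at 7 dpl, 0.121% in females at 7 dpl, 1.07% in males and 0% in females at 14 dpl, and between the sexes of controls 0.0385%, 0.0275% and 0.44% at 3, 7 and 14 dpl. The genes that were higher were Rims2, Stx3, Napb, Syt1, Cplx4 and Syp, and those that were lower were Unc13a, Cabp4, Stx1a, Vamp1, Syt2, Syt11, Cplx1, Cplx2, Syn2, Syngr1, Rab3a and Dnm1. A call on the mean does not say that the strata agree. Of the 36 genes, 7 had the same sign in all 6 strata (4 higher, 3 lower) and 13 had 1 exception. Among the called genes, Stx3 was higher in 4 strata and lower in 2, and Syt11 and Dnm1 were higher in 2 and lower in 4. Scaling by library totals in place of TMM gave 0 higher and 15 lower, with 33.8% of all genes called (2075 higher and 4067 lower of 18197) and their median moved to -0.04. Removal of each library's trend with GC content gave 3 higher and 8 lower, beside 25.7% of all genes. Without the run term 5 were higher and 4 lower, beside 24.3% of all genes, and all of these 9 (Rims2, Stx3, Napb, Syt1, Cplx4, Unc13a, Cabp4, Stx1a and Syt2) were among the 18. The first run alone gave 5 higher and 5 lower, beside 28.5% of all genes, and kept 7 of the 18 (Napb, Syt1, Unc13a, Cabp4, Stx1a, Vamp1 and Syt2).

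Among the calcium sensors, Syt2 fell the most. In the first run it ranged from 13.3 to 29.2 CPM in controls (median 21.2, n = 15) and from 8.78 to 22.8 CPM with SCFA (median 16.1, n = 16). Second-run controls had 31.9 to 34.4 CPM (median 33.03, n = 4) and second-run SCFA libraries 19.6 to 28.0 CPM (median 24.6, n = 8). Treatments overlapped in the first run and were apart in the second, where the controls were males at 3 dpl and females at 14 dpl alone. Some genes that were not called were apart there too, as given below. The log2 difference of Syt2 (chromosome 1, 134646677 to 134762593, GRCm38) was -0.42 ± 0.0967 (edgeR's adjusted p = 0.00127), and it was negative in 6 of 6 strata. Syt1, a calcium sensor of fast release, moved the other way in 6 of 6 strata, by 0.13 to 0.22, with a mean of 0.19 ± 0.066 (edgeR's adjusted p = 0.0328). Its first-run values were 512 to 886 CPM in controls (median 679) and 699 to 1062 CPM with SCFA (median 863). In the second run the order of the medians was turned, with 1063 CPM in 4 controls and 1006 CPM in 8 SCFA libraries. Syt11, a synaptotagmin that does not bind calcium, had a log2 difference of -0.21 ± 0.0781 (edgeR's adjusted p = 0.0373), which was -0.05 in the first run alone (0.722) and was not called without the run term (0.107).

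Complexins clamp and then aid the final fusion step. Cplx1 ranged from 54.3 to 136 CPM in first-run controls (median 81.9) and from 50.7 to 98.5 CPM with SCFA (median 69.4). In the second run its 4 controls had 119 to 132 CPM and the 8 SCFA libraries 79 to 117 CPM. The groups were thus apart in the second run and overlapped in the first. Its log2 difference was -0.35 ± 0.0917 (edgeR's adjusted p = 0.00374), negative in 5 of 6 strata. Cplx2 was apart in the second run too (186.6 to 204.6 CPM in controls, 101 to 182 CPM with SCFA). Its log2 difference was negative in 6 of 6 strata and -0.24 ± 0.0705 on the mean (edgeR's adjusted p = 0.00907), but -0.11 in the first run alone (0.415). Being apart in the second run was not limited to called genes. Nsf, which was not called, had 542 to 636 CPM in second-run controls and 380 to 490 CPM with SCFA. Ctbp2, Sv2a and Syn1 were not called and were apart there too, while Cplx3 and Cplx4 overlapped. Second-run controls came from fewer sex and day groups than the SCFA libraries, so these ranges also compare different groups. The ribbon complexin Cplx4 was higher in 6 of 6 strata, with first-run values of 513 to 739 CPM in controls (median 569) and 454 to 750 CPM with SCFA (median 669), and a log2 difference of 0.16 ± 0.0517 (edgeR's adjusted p = 0.0182). Cplx3 had 0.07 ± 0.0767, which was not called (edgeR's adjusted p = 0.536), and was higher in 3 strata and lower in 3.

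**Figure D3:**
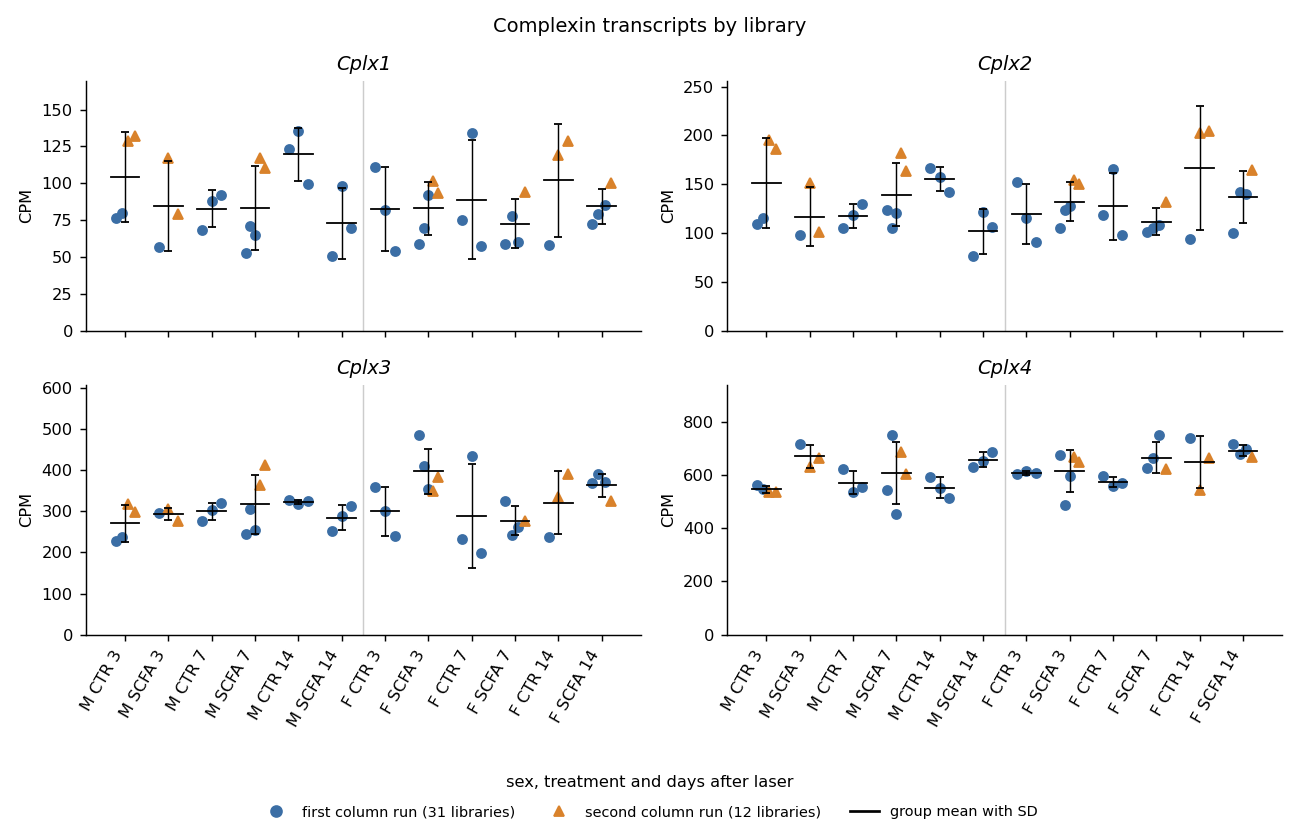
CPM of the 4 complexins in each library by sex, treatment and dpl, with group mean and SD. Cplx1 and Cplx2, of conventional synapses, are high in the triangles (second column run) and have their lowest male group means in male SCFA 14 dpl, while Cplx4 lies between 454 and 750 CPM in all 43 libraries.

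SNARE proteins pull vesicle and plasma membrane together. Vamp1 (chromosome 6, 125215551 to 125245964) ranged from 44.2 to 98.4 CPM in first-run controls (median 67.6) and from 36.3 to 74.6 CPM with SCFA (median 52.8). Its second-run medians were 94.1 CPM in 4 controls and 78.9 CPM in 8 SCFA libraries, and the ranges overlapped in both runs. The log2 difference was -0.33 ± 0.0837 (edgeR's adjusted p = 0.00305), negative in 5 of 6 strata. Stx1a had first-run medians of 7.51 CPM in controls and 6.65 CPM with SCFA, and a log2 difference of -0.25 ± 0.0847 (edgeR's adjusted p = 0.0238). Stx3, its counterpart at ribbons, had first-run medians of 680 and 745 CPM, and a log2 difference of 0.13 ± 0.0495 (edgeR's adjusted p = 0.0517). Napb, a cofactor of Nsf, was 0.11 ± 0.0431 higher (edgeR's adjusted p = 0.0565). Snap25, Vamp2 and Nsf were not called, with log2 differences of 0.06, -0.03 and 0.06.

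Most scaffold and channel genes of the ribbon active zone were not called. Of the 9 scaffold and priming genes, Rims2, which links channels to vesicles, was higher by 0.16 ± 0.062 (edgeR's adjusted p = 0.0512). Unc13a, the priming factor Munc13-1, was lower at -0.25 ± 0.0786 (edgeR's adjusted p = 0.0163). Bsn had 0.03 ± 0.0656, Pclo 0.05 ± 0.0653 and Ctbp2 -0.10 ± 0.0451 on the log2 scale, with adjusted p of 0.794, 0.628 and 0.102 by edgeR. Among the 4 channel genes, Cabp4, a calcium-binding protein that tunes Cav1.4, was lower at -0.19 ± 0.0758 (edgeR's adjusted p = 0.0541), while Cacna1f itself had -0.06 ± 0.106 (edgeR's adjusted p = 0.709).

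On the vesicle, Syp was higher at 0.11 ± 0.0519 (edgeR's adjusted p = 0.098). Exons of an antisense gene overlap 16.8% of its exonic bases, and the strand setting of the counts is not given in the sources used here. Lower were Syngr1 (-0.24 ± 0.0813), the synapsin Syn2 (-0.20 ± 0.0715) and the small GTPase Rab3a (-0.15 ± 0.0651), with adjusted p of 0.0235, 0.0354 and 0.0786 by edgeR. In the first run alone Syn2 had -0.08 (0.607), and without the run term Syngr1 had -0.13 (0.541). Synapsins tether vesicles at conventional synapses and are missing from ribbon terminals. Slc17a7 had 0.01 ± 0.0626 and was not called (edgeR's adjusted p = 0.921). Dnm1 was lower at -0.13 ± 0.0444 (edgeR's adjusted p = 0.0312), and had -0.07 without the run term (0.559).

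**Figure D4:**
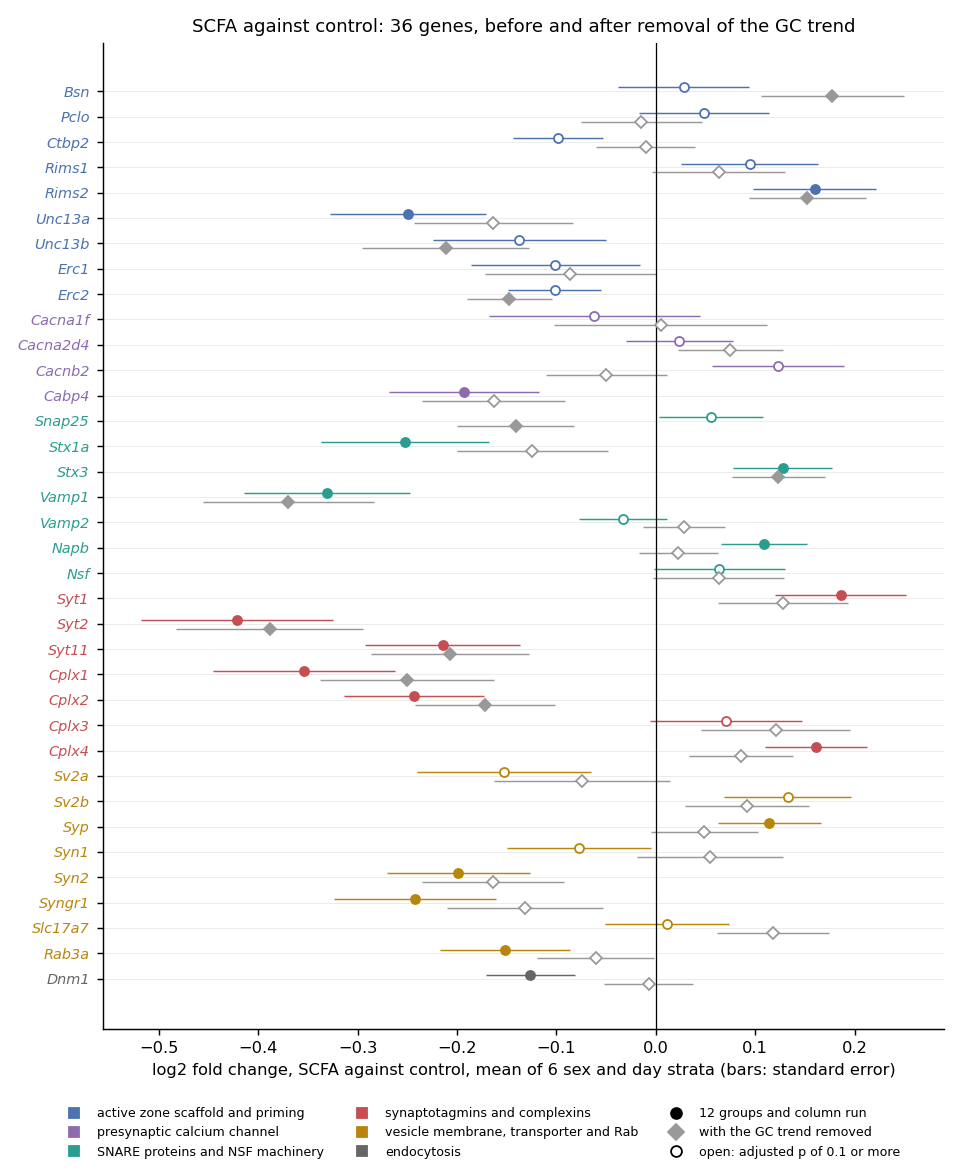
Log2 difference of SCFA against control, as the mean of the 6 sex and day strata, with its standard error, for the 36 genes by role. Coloured circles are from the fit of 12 groups and column run (18 called) and grey diamonds from the same fit after removal of the GC trend (11 called); Syt2, Vamp1 and Cplx1 are the lowest circles.

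The direction of the response went with the base composition of the transcripts. The 6 genes that were higher have longest transcripts with 44.2 to 49.2% GC (median 45.6%), and the 12 that were lower have 47 to 57.9% (median 54.4%). The same slope held over all genes tested, with medians from 0.20 for transcripts of at most 40% GC through 0.03 (45 to 50%) and -0.05 (50 to 55%) to -0.16 above 60%. In the bin from 45 to 50% GC, the 11 genes of the release machinery had a median of 0.09 and 4 were higher and 2 lower, beside 17.8% higher and 11.1% lower of the 4816 genes of the bin. From 50 to 55%, 10 genes had a median of -0.13 and 4 were lower, beside a median of -0.05 and 21.1% lower for the 4594 genes of the bin. Between 55 and 60%, 10 genes had a median of -0.14 and 6 were lower, beside a median of -0.12 and 34% lower for the 3119 genes of the bin. Of 3 genes from 40 to 45%, 2 were higher, beside 34.3% of the bin, and the 2 genes of at most 40% were not called. With the GC trend of each library removed, 7 of the 18 calls were kept. These were Rims2 (0.15), Stx3 (0.12), Vamp1 (-0.37), Syt2 (-0.39), Syt11 (-0.21), Cplx1 (-0.25) and Cplx2 (-0.17). Cplx4 then had 0.09 ± 0.0522 (edgeR's adjusted p = 0.265), Syt1 0.13 ± 0.0658 (0.177) and Dnm1 -0.01 (0.932). Bsn (0.18), Unc13b (-0.21), Erc2 (-0.15) and Snap25 (-0.14, against 0.06 before) were gained. In the stretches before their starts, GGGCGG stood in 9 of the 11 lower genes with a RefSeq start, in 2 of the 4 higher (Syp and Syt1) and in 8 of the 15 not called. Counted by stretch, these were 10 of 14, 2 of 5 and 8 of 20, beside 32.7% of all stretches. All 18 genes that had been called before the correction had the same sign after it, and whether base composition causes part of the difference was not tested.

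**Figure D5:**
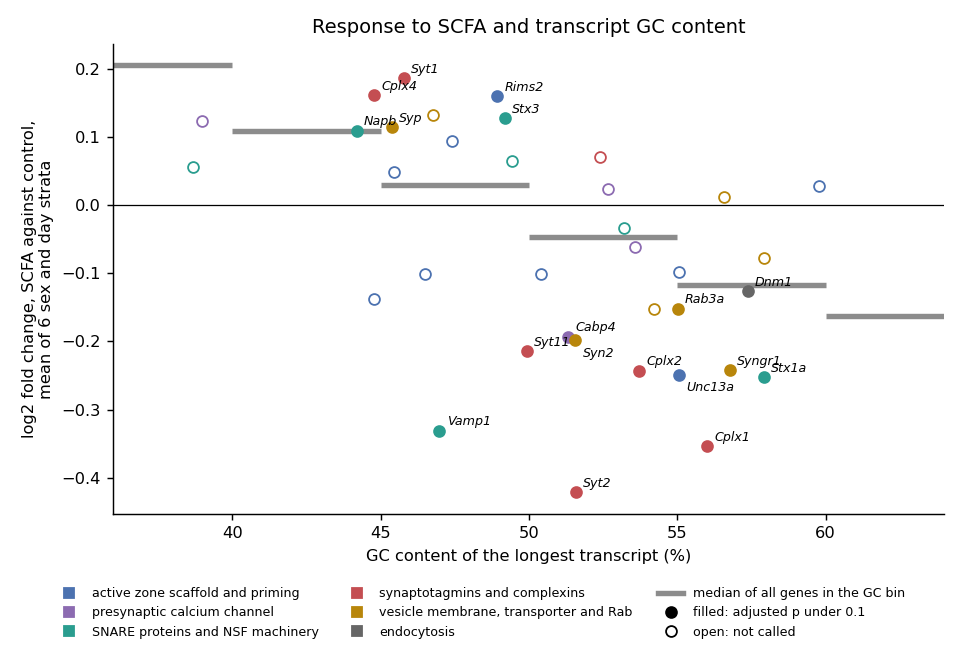
Log2 difference of SCFA against control (mean of 6 strata) against the GC content of the longest transcript for the 36 genes, with grey bars for the median of all tested genes in each GC bin. Called genes that were higher lie between 44.2 and 49.2% GC, and the bars fall from 0.20 to -0.16.

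Other cell markers were read in the same contrast, in which 17.7% of all genes were called higher and 17% lower. Of 8 retinal ganglion cell markers, 5 were lower with SCFA (Nefh by -0.45 and Nefm by -0.45 on the log2 scale) and 0 higher. Their summed level was 857 to 1591 CPM in the 19 controls and 750 to 1210 CPM in the 24 SCFA libraries, and none of the 8 was at 0 in any library. Of 8 immediate early genes, transcripts induced by neuronal activity and by handling, all 8 were lower, with sums of 104 to 492.96 CPM in controls and 84 to 183 CPM with SCFA. Bipolar markers (3 of 10 higher, 1 lower) summed to 733 to 1320 CPM in controls and 837 to 1172 CPM with SCFA, amacrine markers (2 of 8 higher, 1 lower) to 343 to 733 and 342 to 626 CPM, and rod markers (1 of 10 higher, 1 lower) to 69251 to 93092 and 51178 to 105804 CPM. Of the 7 Muller glia markers 3 were higher (sums of 3376 to 5919 CPM in controls, 3644 to 8846 CPM with SCFA), and of the 9 microglia markers 3 were lower (66.2 to 133 CPM and 48 to 134 CPM). The part of these cells in the values of the release genes was not tested.

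At 3 dpl in males, 0 of the 36 genes were called by edgeR, beside 0.022% of all genes (5 members and 10.9% of all genes had an unadjusted p under 0.05, and DESeq2 called 0). Within the second column run alone, with 2 libraries on each side, 8 were called lower, beside 9.24% of all genes called there in either direction. The lowest log2 differences of the fit over all libraries were those of Syt11 (-0.57 ± 0.194), Stx1a (-0.50 ± 0.207) and Cplx2 (-0.43 ± 0.173).

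Priming factors were lower in SCFA females at 3 dpl, where 2 genes were called lower and 0 higher, or 5.56% beside 8.11% of all genes (4.78% higher, 3.33% lower). Unc13a (chromosome 8, 71624417 to 71671757) had 83.4, 101 and 131 CPM in the 3 controls. With SCFA it had 53.3, 36.7 and 75.4 CPM in the first run and 94.1 and 89.1 CPM in the second. The first-run SCFA libraries were below all controls, and the second-run libraries were among them. Its log2 difference was -0.71 ± 0.187 (edgeR's adjusted p = 0.0324). Unc13b, the related Munc13-2, had 239, 277 and 381 CPM in controls, and 166, 125, 212, 284 and 245 CPM with SCFA. Its log2 difference was -0.60 ± 0.205 (edgeR's adjusted p = 0.0843). The lowest library for both genes was replicate 2, the one with lens transcripts. Without it, 0 genes were called. Lens markers (6 of 6 higher), markers of the retinal pigment epithelium (4 of 8 higher, summed level 157 to 1776 CPM with SCFA and 207 to 403 CPM in controls) and Muller glia (2 of 7 higher) moved in this contrast, and their part was not tested.

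In male retinas at 7 dpl Rims1 was higher with SCFA, and Dnm1, Syt2 and Syngr1 were lower. Of the 36 genes, 1 was higher and 3 were lower, or 11.1% beside 22.2% of all genes (13.1% higher, 9.1% lower). Rims1 (chromosome 1, 22286251 to 22805994), which docks and primes vesicles at the active zone, had 49.1, 47.4 and 47.1 CPM in controls. It had 72.1, 54.4, 84.4, 83.1 and 76.2 CPM with SCFA. All SCFA libraries were above all controls, by a log2 difference of 0.53 ± 0.166 (edgeR's adjusted p = 0.0259). Dnm1 had 483, 442 and 458 CPM in controls, and 388, 405 and 318 CPM in the first-run and 532 and 485 CPM in the second-run SCFA libraries. For Syt2 the controls had 18.6, 23.0 and 21.6 CPM, the first-run SCFA libraries 11.6, 16.0 and 8.78 CPM and the second-run SCFA libraries 25.3 and 25.7 CPM. Syngr1 was arranged alike, with 194, 203 and 220 CPM in controls, 114, 186 and 96 CPM in the first run and 297 and 266 CPM in the second. For these 3 genes the 2 runs of SCFA libraries lay on opposite sides of the controls, all of which belong to the first run. The 2 lowest SCFA libraries for these genes, replicates 1 and 3, held 15.3 and 16.6% mitochondrial transcripts, and replicate 2 held 8.14%. The part of this share was not tested. The log2 differences with the run in the fit were -0.30 ± 0.105 for Dnm1, -0.65 ± 0.231 for Syt2 and -0.52 ± 0.193 for Syngr1, with adjusted p of 0.046, 0.0507 and 0.0632 by edgeR. The libraries that the study chose leave out SCFA replicates 1 and 3. Among them, compared without the run, the log2 differences of the 3 genes were 0.05, 0.09 and 0.29 and were not called. Without male SCFA replicate 3 the number of called genes was 0 and without replicate 2 it was 6. Muller glia markers (3 of 7 higher, sums of 3376 to 4303 CPM in controls and 4625 to 8846 CPM with SCFA), immediate early genes (6 of 8 lower, 291 to 369 CPM and 98.9 to 145 CPM) and markers of the retinal pigment epithelium (2 of 8 lower, 457 to 565 CPM and 171 to 408 CPM) moved in this contrast, and their part was not tested.

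The fits for SCFA females at 7 dpl called 0 of the 36 genes by edgeR, beside 0.643% of all genes (7 members and 15.8% of all genes had an unadjusted p under 0.05, and DESeq2 called 0). Without female control replicate 3 the number was 7, and the controls left then included replicate 2, the library with Y-linked transcripts. That library had 29.2 CPM of Syt2, 90.3 of Vamp1 and 160 of Rims2. The other controls had 19.4 and 15.1 CPM of Syt2, 62.2 and 56.7 of Vamp1, and 231 and 281 of Rims2. Without the libraries with lens and Y-linked transcripts, 0 members and 0% of all genes were called, and 2 members had an unadjusted p under 0.05. The log2 differences with the smallest p were those of Syt2 (-0.63 ± 0.237), Vamp1 (-0.49 ± 0.204) and Rims2 (0.37 ± 0.152).

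Cplx1 and Cplx2 were called lower in SCFA males at 14 dpl, where all 6 libraries belong to the first column run. Cplx1 had 123, 136 and 99.9 CPM in the controls and 50.7, 98.5 and 69.4 CPM with SCFA. Cplx2 had 166, 158 and 142 CPM in the controls and 77, 122 and 107 CPM with SCFA. For both genes every SCFA library was below every control. The log2 differences were -0.71 ± 0.239 for Cplx1 and -0.61 ± 0.184 for Cplx2, with adjusted p of 0.0902 and 0.0657 by edgeR. Neither was called without the run term (adjusted p of 0.276 and 0.237) or with the GC trend removed (0.158 and 0.13), and Cplx1 was not called in the first run alone (0.146). These 2 of 36 genes, or 5.56%, stand beside 7.17% of all genes (3.28% higher, 3.89% lower). Without replicate 1 of male SCFA 0 genes were called and without its replicate 2, the highest for both, 6 were. Ganglion cell markers (2 of 8 lower, sums of 1233 to 1510 CPM in controls and 841 to 1146 CPM with SCFA) were lower in the same libraries, and their part was not tested. Cplx3 (-0.19) and Cplx4 (0.25) were not called.

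In females at 14 dpl 0 of the 36 genes were called by edgeR, beside 0% of all genes. An unadjusted p under 0.05 was found for 0 members and 2.91% of all genes, and DESeq2 called 0. With the libraries that the study chose, compared without the run, 12 were called lower and 0 higher, beside 17.7% of all genes. In that choice all controls are second-run and all SCFA libraries first-run, so that treatment and run cannot be told apart. In the fit over all libraries with the run, Cplx1 had a log2 difference of 0.07 and Cplx2 of -0.01. The male minus female difference in the response was -0.79 ± 0.333 for Cplx1 and -0.60 ± 0.257 for Cplx2 at 14 dpl, and neither was called (edgeR's adjusted p = 0.484 for both). At each day, 0 of the 36 genes were called in this difference of responses by edgeR and by DESeq2, beside 0% of all genes. An unadjusted p under 0.05 was found for 3 members at 3 dpl (12.6% of all genes), 0 at 7 dpl (7.32%) and 4 at 14 dpl (10%).

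Between control males and females, 0 of the 36 genes were called by edgeR at 3 dpl (0.0495% of all genes) and 0 at 7 dpl (0.0275%), and DESeq2 called 0 at both. An unadjusted p under 0.05 was found for 0 members at 3 dpl (5.17% of all genes) and 0 at 7 dpl (3.81%). At 14 dpl 2 genes, or 5.56%, were higher in males, beside 4.63% of all genes (1.53% higher, 3.1% lower). Rab3a (chromosome 8, 70754679 to 70758677), which guides vesicles to the active zone, had 394, 422 and 382 CPM in males. In females it had 242 CPM in the first-run library and 304 and 349 CPM in the second run, all below the males. The log2 difference was 0.57 ± 0.179 (edgeR's adjusted p = 0.0843). Vamp1 had 90.8, 98.4 and 76.5 CPM in males, and 44.4 CPM in the first-run and 92.9 and 86.2 CPM in the second-run females, which overlapped with the males. Its log2 difference was 0.73 ± 0.231 (edgeR's adjusted p = 0.0866). All 3 males are first-run libraries and only 1 female is, and both calls were lost without any 1 of the 6 libraries. Of 8 ganglion cell markers 3 were higher in these males, with sums of 1233 to 1510 CPM beside 960 to 1138 CPM in females, and their part was not tested.

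Over the days after laser, 0 of the 36 genes were called in controls by edgeR and by DESeq2, either from 3 to 7 dpl or from 7 to 14 dpl, beside 0% of all genes. An unadjusted p under 0.05 was found for 0 members (6.55% of all genes) from 3 to 7 dpl and for 4 members (9.36%) from 7 to 14 dpl. The log2 differences from 7 to 14 dpl ran from -0.22 to 0.33, with the 2 highest for Rims1 (0.33 ± 0.131) and Nsf (0.28 ± 0.126).

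A wider list of 111 other release genes, of which 110 were tested, was read beside the 36. On the mean of the strata 16 were higher and 33 lower with SCFA, with a median of -0.07, beside the 17.7% higher and 17% lower of all genes. Other synaptotagmins were lower in 6 of 11 cases and higher in 0. Of other active zone and channel genes 4 of 26 were higher and 11 lower, of SNARE proteins and their regulators 4 of 25 higher and 3 lower, of vesicle proteins, transporters and Rabs 5 of 25 each, and of endocytosis genes 3 of 23 higher and 8 lower. The 3 genes named here were picked by smallest adjusted p and were all higher, while more genes of the list were called lower. Lin7c, an adaptor of the presynaptic scaffold, was higher by 0.52 ± 0.0707, Slc18a2, the vesicular monoamine transporter, by 0.50 ± 0.0767 and Picalm, a clathrin assembly protein, by 0.21 ± 0.0378 on the log2 scale. By stratum, 0 of the 110 were called in males at 3 dpl, 2 higher and 6 lower in females at 3 dpl, 17 higher and 15 lower in males at 7 dpl, and 1 higher and 0 lower in females at 7 dpl. At 14 dpl 5 were higher and 10 lower in males and 0 were called in females. In the same order, 0.022%, 8.11%, 22.2%, 0.643%, 7.17% and 0% of all genes were called. Between the column runs 59 were higher and 17 lower, beside 25.7% and 26.4% of all genes.

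A list of 16 genes of the contact between photoreceptor ribbons and the dendrites that face them was tested, most of them of the dendrites, among them the receptor complex of ON bipolar cells. On the mean of the strata 1 was higher with SCFA and 0 were lower, beside 17.7% and 17% of all genes. It was Elfn1, an adhesion protein on the photoreceptor side of the rod synapse (0.17 ± 0.0598, edgeR's adjusted p = 0.0347). Between the column runs 8 of 16 were higher and 0 lower, beside 25.7% and 26.4% of all genes, with Lrit3 at 1.08 ± 0.137 (edgeR's adjusted p = 1.42e-07).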

How the data were processed

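RNA-seq of 43 retina libraries was analysed from the deposited table of raw counts per gene, which the authors made from their reads. The submitters' processing notes name the genome build mm10 and DESeq2, with no version. The aligner and the strand setting are not given in the sources used here. Of 54532 gene identifiers, 54495 matched the GENCODE M21 annotation of GRCm38, and promoter sequences are from RefSeq (GRCm38.p6), which was at hand for 30 of the 36 genes.

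Counts were fitted with edgeR 4.0.16 (R 4.3.3), its quasi-likelihood test, TMM scaling and the filterByExpr filter, with 12 groups and the column run as terms. This left 18197 genes, among them all 36 members, and p-values were adjusted by Benjamini-Hochberg over all of them. A gene was called at an adjusted p under 0.1. The standard error was taken as the log2 difference divided by the root of its F. The mean of log2(CPM + 1) over the 36 genes is a description only. GC content is that of the longest transcript, and the GC trend was removed per library with a lowess fit (span 0.3). Library totals were 14826957 to 21507527 counts. Steps were tested on simulated data.

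Samples were grouped by the sex, treatment and day of the labels. All 36 members are accounted for, with values per library for the 3 members of smallest adjusted p under 0.1 in each comparison, all called members in males at 7 dpl, and 8 fixed genes over the groups. The members and lists were chosen with earlier results of these data known. Replicate numbers did not pair the libraries. The correlation of deviations between same-numbered libraries of the 2 treatments ran from -0.41 to 0.485 over 18 pairs, with 5 over 0.1. Alternatives were other scaling (library totals, RLE size factors), filters, thresholds and pseudocount, DESeq2 1.42.0, no column run term, each run alone, a replicate block, GC and length trends, the study's choice of libraries, and leaving out libraries.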

Additional observations from a re-analysis of the deposited data

Results flagged for a closer look

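Within groups of 4 or 5 libraries, 90 sets of values (17 members and their mean level in 5 groups) were searched for a library that stood apart from the rest of its group by Dixon's criterion, which flags about 1 in 20 sets by chance. In 3 sets a library did. Cacna1f had 423.1 CPM in replicate 1 of female SCFA 7 dpl, below the 458.1 to 463.6 CPM of the other libraries. Rab3a had 317.4 CPM in replicate 3 of male control 3 dpl, above 306.6 to 308.3 CPM in the others. Syt1 had 935.5 CPM in replicate 1 of female SCFA 14 dpl, below 1052 to 1069 CPM in the others.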

How the results depend on the processing

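All 18 genes called on the mean of the strata had the same sign in every alternative that was run. The number called there was 9 (5 higher) without the column run term, 10 (5 higher) in the first run alone, 11 with the GC trend removed, 0 with the added condition of a log2 difference over 1, and 16 to 20 with 1 library left out. Requiring a log2 difference over 1 also gave 0 in the other comparisons. At an adjusted p under 0.05 the numbers were 1 in females at 3 dpl, 2 in males at 7 dpl, 0 in males at 14 dpl and 0 between the sexes at 14 dpl. Without the column run term they were 0, 1, 0 and 0 in these 4 comparisons. With the GC trend removed they were 4, 2, 0 and 0. The first run alone gave 5 in females at 3 dpl, 1 in males at 14 dpl and 0 between the sexes at 14 dpl. Without a filter on low counts the numbers were 1, 4, 3 and 5 in males and females at 3 dpl, females at 7 dpl and males at 14 dpl, 4 between the sexes at 14 dpl, and 1 in the difference of responses at 3 and 14 dpl. DESeq2 called 4 in females at 3 dpl and 4 (1 higher) in males at 14 dpl, beside 10.6% and 10.8% of all genes, and library totals gave 5 and 1. Removal of the length trend left 1 between the sexes at 14 dpl. With the libraries the study used, compared pairwise, the numbers were 11 (9 higher) in males at 7 dpl, 14 (5 higher) in males and 12 (0 higher) in females at 14 dpl, and 5 and 0 between the sexes at 7 and 14 dpl, beside 19.1%, 24.6%, 17.7%, 6.59% and 0.0376% of all genes. There, in males at 7 dpl, Dnm1 had 0.0497, Syt2 0.0893 and Syngr1 0.2887, the opposite sign. In females at 14 dpl this choice sets second-run controls against first-run SCFA libraries, so that treatment and run cannot be told apart there. The cause of the other changes was not tested.

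Leaving out 1 library gave 0 to 3 in females at 3 dpl, 0 to 6 in males at 7 dpl, 0 to 7 in females at 7 dpl, 0 to 6 in males at 14 dpl, 0 between the sexes at 14 dpl, and 0 in the other comparisons. A pair of alternatives were chosen after seeing the data. The second run alone gave 8 in males at 3 dpl and 0 in females at 14 dpl. Without the libraries with lens and Y-linked transcripts 1 gene was called in females at 3 dpl (Unc13a, -0.56) and 19 on the mean. With a replicate block, 0 genes were called between the sexes at 14 dpl and 20 on the mean of the strata, and no other number moved by over 1.5 times.

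In some settings the difference in mean level of the 36 genes (log2) moved by more than 0.0947. This is the SD between libraries that is left within groups and column run. With library totals the difference was -0.3046 in females at 3 dpl, -0.1828 in males at 7 dpl, 0.1611 between the sexes at 14 dpl and 0.1929 for the difference of responses at 3 dpl, and this scaling moved the median of all genes to -0.15, -0.14, 0.10 and 0.12 in these comparisons. Without the run term it was -0.0139 in females at 3 dpl, 0.0526 in males at 7 dpl, -0.0845 in females at 14 dpl, 0.1082 and -0.1493 between the sexes at 3 and 14 dpl, 0.173 from 7 to 14 dpl and 0.0145 for the difference of responses at 14 dpl. In the first run alone it was 0.1034 in males at 3 dpl, 0.1735 in females and 0.1586 between the sexes at 14 dpl, and 0.2399 and -0.2435 for the difference of responses at 3 and 14 dpl. Groups held 3 to 5 libraries, and runs were only partly crossed with the groups.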
